A study of Mus musculus with 12 samples.

Results

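The glutathione S-transferase (GST) genes of the cytosolic alpha, mu, pi and theta classes were followed in whole liver of sham, septic and dichloroacetate-treated septic mice. The members were 10 of the 25611 genes in the table of read counts, taken by gene symbol: Gsta2, Gsta3 and Gsta4 of the alpha class, Gstm1, Gstm2, Gstm3 and Gstm4 of the mu class, Gstp1 of the pi class, and Gstt1 and Gstt2 of the theta class. All 10 had enough reads to be among the 13190 genes tested. At 30 hr after cecal ligation and puncture all 10 had lower mean levels than in sham liver, and the size of the difference ran from a residual of 4.75% for Gsta2 to 87.4% for Gstp1. Gsta2 and Gsta4 fell past the test, where 1.14% of all tested genes did, and the other 8 did not pass. Both calls were lost in 9 of the 12 fits that left out 1 mouse.

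GSTs join the thiol of glutathione to electrophiles such as epoxides, quinones and aldehydes made by lipid peroxidation, and so make them soluble and ready for export. The hepatocyte carries large amounts of them, and the classes differ in substrate: alpha enzymes also reduce lipid hydroperoxides, mu enzymes take epoxides and quinones, pi takes small electrophiles and modifies protein thiols, and theta takes halogenated alkanes and sulfate esters. Several of these genes are targets of the transcription factor NRF2, which acts through antioxidant response elements. They are also known to be lowered in the liver by inflammatory cytokines.

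Each group held 4 male C57BL/6J mice of 8 to 10 weeks. In the CLP groups the cecum was ligated and punctured with a needle, a model of polymicrobial sepsis. Sham mice had the abdominal incision alone, and every mouse was given saline under the skin. Mice of the CLP+DCA group received dichloroacetate (DCA), an inhibitor of pyruvate dehydrogenase kinase, at 25 mg/kg into the peritoneum at 24 hr, so that liver was taken 6 hr later, at 30 hr, and whether sham and CLP mice had a vehicle injection at 24 hr is not stated in the sources used here. CLP is a surgical model with a severity that differs between animals, and whole liver holds every cell type of the organ.

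Counted reads numbered 24436513 to 44266819 in a mouse (median 30005989). Levels are given as CPM, the reads of a gene per 1000000 reads of its library, after the libraries were scaled to each other (TMM). Hepatocyte markers, 11 genes, made up 7.70 to 9.36% of a sham library, 3.07 to 5.68% of a CLP library and 2.91 to 6.91% of a CLP+DCA library. Of the 11, 1 was called lower in CLP, where 1.14% of all tested genes were. Their median log2 fold change in CLP was -0.62, with 2 of the 11 above 0. In a bulk sample fewer cells of a type and less RNA per cell cannot be told apart. The share of 15 acute phase genes was 8.22 to 9.16% in sham mice against 16.1 to 29.1% in CLP mice. CLP+DCA mouse 3 stood apart from the rest of its group, with 28.8% of its reads on acute phase genes against 11.2 to 15.6% in mice 1, 2 and 4, and results for the CLP+DCA group are therefore given with and without it. CLP mice 2 and 4, with 29.1 and 26.5%, had a larger acute phase share than CLP mice 1 and 3, with 19.0 and 16.1%. CLP mice 2 and 4 were kept wherever CLP+DCA mouse 3 was left out.

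Of the other cell types, 8 of 10 neutrophil markers were tested and 1 was called higher in CLP, where 1.64% of all tested genes were. Of the 8, 7 had a positive log2 fold change in CLP, with a median over the 8 of 2.35. Markers near 0 in sham could enter the test through septic mice alone, so this median can lean to markers that are high after CLP. The list of 10 summed to 6.39 to 9.11 CPM in sham mice, 30.7 to 41.9 CPM after CLP and 6.54 to 54.5 CPM after CLP and DCA. Mpo was at 0 reads in 3 CLP mice and Camp at 0 in 4 sham mice. All 10 markers of stellate cells and cholangiocytes had higher means in CLP, with a median log2 fold change of 1.31 and none called, and summed to 56.9 to 71.8, 118 to 342 and 63.0 to 282 CPM in the same order of groups. In CLP+DCA mouse 3 these sums were the highest of its group, 54.5 and 282 CPM. Macrophage markers (10 genes) summed to 194 to 320, 299 to 386 and 247 to 482 CPM and endothelial markers (8 genes) to 128 to 170, 158 to 203 and 127 to 182 CPM, with none called. Lymphocyte markers were near 0, the 9 counted summing to 1.96 to 4.21, 0.539 to 1.60 and 0.921 to 2.94 CPM, with a median log2 fold change in CLP of -1.33 over the 4 tested, none called, and Cd8a, Cd79a and Ms4a1 at 0 reads in 1 to 3 CLP mice. The part of these markers and shares in the differences below was not tested.

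The GST genes lie in clusters of copies, so how far a read can name its gene was looked at first. On GRCm38 the 4 mu members lay next to each other on the minus strand of chromosome 3, Gstm3 at chr3:107963696-107969174, Gstm2 at chr3:107981702-107986436, Gstm1 at chr3:108012250-108017973 and Gstm4 at chr3:108040408-108044859. Gsta4 (chr9:78191966-78209349) and Gsta2 (chr9:78331020-78347145) lay on chromosome 9 on either side of Gsta1, Gm3776 and Gm10639, while Gsta3 lay on chromosome 1 (chr1:21240585-21265575). Gstp1 (chr19:4035411-4037912) adjoined Gstp2, and Gstt1 (chr10:75783813-75798584) and Gstt2 (chr10:75831845-75834881) shared a cluster on chromosome 10. The start of the coding sequence is shown for the pairs of genes that are most alike, since it is here that a read of one can be taken for a read of the other. Over their first 120 coding bases Gsta2 and Gsta1 carry the same sequence in the GENCODE transcripts, and it is printed once. Over the same stretch Gstp1 and Gstp2 differ at 6 bases, which are in capitals.
Gsta2 and Gsta1: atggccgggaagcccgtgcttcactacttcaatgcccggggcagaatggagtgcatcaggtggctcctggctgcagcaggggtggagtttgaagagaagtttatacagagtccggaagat
Gstp1: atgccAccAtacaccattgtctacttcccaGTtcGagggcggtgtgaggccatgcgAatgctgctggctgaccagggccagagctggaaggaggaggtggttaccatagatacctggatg
Gstp2: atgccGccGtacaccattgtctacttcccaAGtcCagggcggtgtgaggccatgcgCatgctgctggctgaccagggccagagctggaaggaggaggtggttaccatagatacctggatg

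Over the whole coding sequence Gsta2 and Gsta1 were 97.6% identical and Gstp1 and Gstp2 98.1%. Identity between members of a class was lower, 65.9 to 75.4% among the alpha members, 72.3 to 85.0% among the mu members and 60.6% between the theta members, and between members of different classes it was 47.1 to 53.3%. Of all stretches of 100 bases in its transcripts, Gsta2 shared 24.8% with another gene and Gstp1 shared 38.4%, all of the latter with Gstp2. Gstm3 shared 13.8%, in large part with pseudogenes that are not counted in the table, Gstm1 6.17% and Gstm2 0.548%. Gsta3, Gsta4, Gstm4, Gstt1 and Gstt2 shared none. Values of Gsta2, Gstp1 and Gstm3 are therefore less certain than those of the other members, because how the counting treated a read that matches 2 genes is not given in the sources used here. Reads on the near copies of Gsta2 were few: Gsta1 had 0 to 8 reads per mouse, Gm3776 0 to 8, and Gm10639 had 0 in all 12 mice, where up to 3 reads would be compatible with a count of 0.

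To compare genes with each other, CPM was divided by the exonic length of the gene in kilobases. In sham liver 3 members of 3 classes stood at the same level: Gstp1 at 783 ± 157 CPM per kb (SD, n = 4), Gstm1 at 760 ± 162 and Gsta3 at 741 ± 38.4, which do not differ beyond their spread. Gstt1 followed at 84.3 ± 21.4 CPM per kb. Below it came Gstm2 at 33.4 ± 4.75, Gstm4 at 27.8 ± 3.83, Gstt2 at 22.4 ± 6.76, Gsta4 at 20.3 ± 5.68 and Gstm3 at 19.8 ± 6.30. The mice overlapped between each of these 5 genes and the next, and the means of Gstm2 and Gstm4 lay further apart than either SD. Gsta2 was the lowest at 8.65 ± 4.56 CPM per kb. In CLP liver Gstp1 led alone at 684 ± 18.4 CPM per kb, ahead of Gsta3 at 213 ± 166 and Gstm1 at 154 ± 112. Gstt1 and Gstm2, apart in sham, stood at 29.5 ± 13.7 and 24.6 ± 8.28 CPM per kb in CLP. Gsta2 was again the lowest at 0.354 ± 0.407 CPM per kb. In CLP+DCA liver the order at the top was Gstp1 at 593 ± 146, Gsta3 at 392.2 ± 254 and Gstm1 at 353 ± 186 CPM per kb, with overlapping spread.

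**Figure D1:**
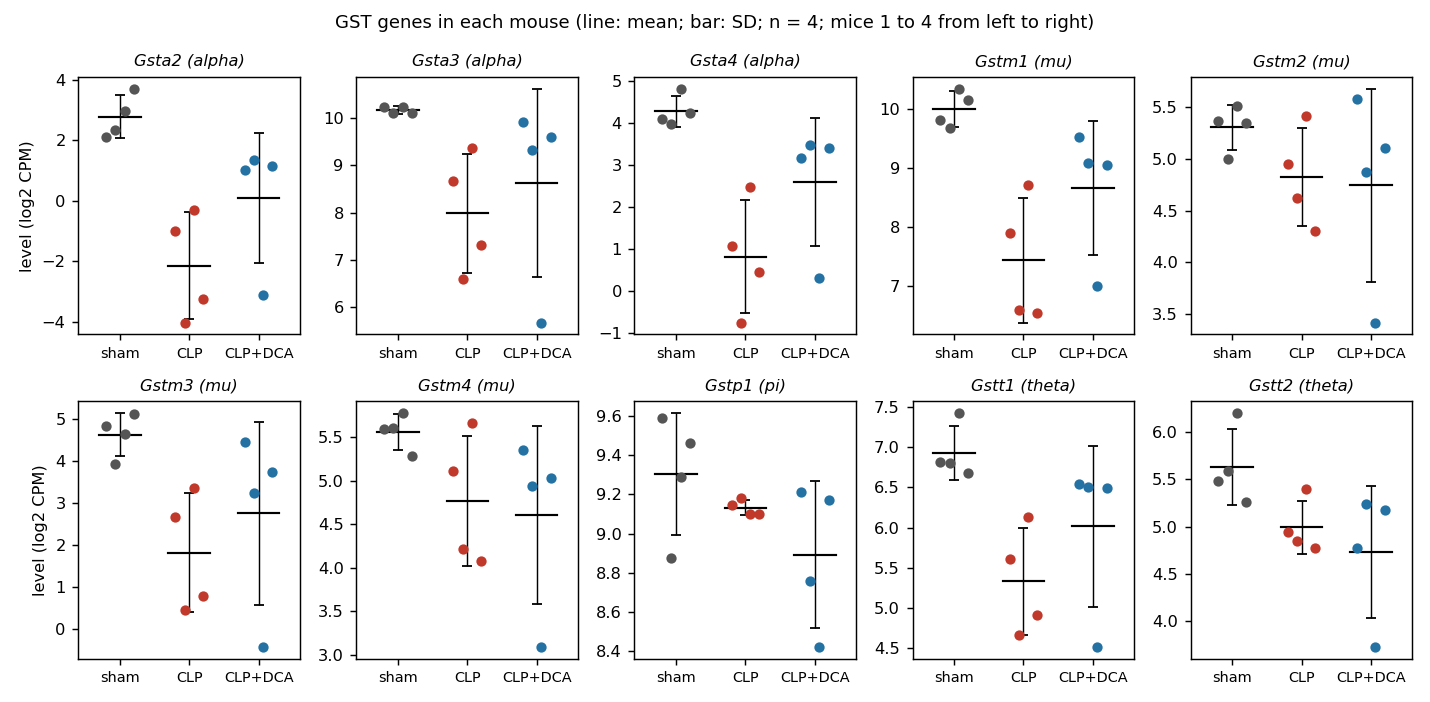
Level of each of the 10 GST genes (y axis, log2 CPM with a prior count of 2) in each mouse (points) of the sham, CLP and CLP+DCA groups, with the mean and SD of 4 mice. The CLP points of Gsta2, Gsta3, Gsta4, Gstm1, Gstm3 and Gstt1 all sit below the sham points, those of Gstp1 lie within the sham range, and CLP+DCA mouse 3 is the lowest of its group for all 10 genes.

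Among the alpha genes, Gsta2 codes for an inducible enzyme that conjugates electrophiles and reduces lipid peroxides. It stood at 4.24, 5.001, 7.85 and 13.0 CPM in sham mice 1 to 4, at 0.438, 0, 0.750 and 0.0449 CPM in CLP mice 1 to 4, and at 1.98, 2.49, 0.0542 and 2.16 CPM in CLP+DCA mice 1 to 4. These rest on 114 to 475 reads for a sham mouse, 0 to 31 for a CLP mouse and 2 to 74 for a CLP+DCA mouse. All CLP mice lay below all sham mice, and the lowest of them had 0 reads, a count that allows a level of up to 0.144 CPM. Gsta2 fell by 4.40 on the log2 scale in CLP against sham (SE 0.94, 95% interval -6.45 to -2.35, adjusted p = 0.0412, edgeR's quasi-likelihood test with Benjamini-Hochberg adjustment over 13190 genes). It had the third lowest log2 fold change of all genes tested.

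Gsta4 codes for the enzyme that clears hydroxynonenal, an aldehyde from oxidized fatty acids. It stood at 17.0, 15.6, 27.9 and 18.9 CPM in sham mice, at 2.03, 0.527, 5.51 and 1.30 CPM in CLP mice and at 8.94, 10.99, 1.16 and 10.5 CPM in CLP+DCA mice. The sham and CLP mice did not overlap, and CLP+DCA mouse 3 lay among the CLP mice while the rest of its group lay between CLP and sham. Gsta4 fell by 3.02 on the log2 scale (SE 0.69, 95% interval -4.54 to -1.50, adjusted p = 0.0472 by the same test), to 12.3% of sham. Gsta2 and Gsta4 were 2 of 10 members that fell, where 1.14% of all tested genes did. With no filter on low counts the adjusted p was 0.0653 for Gsta2 and 0.0747 for Gsta4. With near-identical genes summed, an alternative chosen after seeing the data, both calls stood. Both calls depended on single mice: leaving out any of sham mice 1 to 4, CLP mice 1, 2 or 4, or CLP+DCA mice 1 or 2 moved the adjusted p past 0.05, up to 0.114 for Gsta2 and 0.125 for Gsta4 without CLP mouse 2, and without CLP+DCA mouse 3 it was 0.00296 and 0.00573.

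Gsta3 codes for the main constitutive alpha enzyme of mouse liver, known for detoxifying the aflatoxin epoxide. Its sham values were close together, at 1204, 1101, 1200 and 1097 CPM. In CLP mice they were 407, 96.7, 661 and 160 CPM and in CLP+DCA mice 965, 641, 51.0 and 779 CPM. All CLP mice lay below all sham mice, with mice 2 and 4 far below mice 1 and 3. The log2 fold change of -1.80 (SE 0.74) had an adjusted p of 0.139 in edgeR's quasi-likelihood test, which is not past the threshold. Its mean and SD were 1150 ± 59.6 CPM for sham mice against 331 ± 258 CPM for CLP mice (n = 4).

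The promoter window of Gsta3 is shown because it holds a match to each of the 3 motifs first searched, written in capitals. The windows (RefSeq, GRCm38.p6) run from 250 bases before to 50 bases after the start, and both strands were searched for TGACNNNGC, the core of the antioxidant response element, GTTAAT, a half-site of HNF1, and TTNNGCAA, a C/EBP type site. Gsta3 holds ATTAAC at position -149, TTTAGCAA at -137 and TGACATTGC at -121, none overlapping another. Gsta2 holds none of them in its window.
Gsta3, chr1:21240335-21240634, plus strand: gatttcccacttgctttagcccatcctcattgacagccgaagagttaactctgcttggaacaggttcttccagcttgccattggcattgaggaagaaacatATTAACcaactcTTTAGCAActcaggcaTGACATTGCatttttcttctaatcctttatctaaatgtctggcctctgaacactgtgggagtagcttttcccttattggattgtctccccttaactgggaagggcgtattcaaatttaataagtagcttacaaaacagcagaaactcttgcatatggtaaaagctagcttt
Gsta2, chr9:78347096-78347395, minus strand: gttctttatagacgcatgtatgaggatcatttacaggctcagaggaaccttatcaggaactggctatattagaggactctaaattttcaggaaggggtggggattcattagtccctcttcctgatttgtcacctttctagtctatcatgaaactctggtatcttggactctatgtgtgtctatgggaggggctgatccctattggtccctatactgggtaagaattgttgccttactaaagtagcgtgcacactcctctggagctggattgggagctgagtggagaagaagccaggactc

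Of 32851 windows of the same length, 12.4% hold TGACNNNGC, 7.10% GTTAAT and 10.8% TTNNGCAA. Among the members with a window, Gstm2 and Gstt1 hold a C/EBP type match (TTGCCTAA at -42 and TTGCATAA at -39), and Gstm1, Gstm3, Gstm4 and Gstp1 hold no match to these 3 motifs. Gsta4 and Gstt2 have no window in the table. A match describes letters in this window and is not a bound site. TGACNNNGC was the only form of the antioxidant response element searched.

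The mu members split into a pair with a large difference and a pair with a small one. Gstm1, which codes for the leading mu enzyme of liver, stood at 901, 814, 1299 and 1142 CPM in sham mice, at 238, 95.7, 417 and 92.4 CPM in CLP mice and at 732, 543, 127 and 527 CPM in CLP+DCA mice. The sham and CLP mice did not overlap. The log2 fold change in CLP was -2.30 (SE 0.57, 95% interval -3.54 to -1.06), with an adjusted p of 0.0529 by edgeR's quasi-likelihood test. Gstm3 stood at 28.7, 15.2, 24.9 and 34.9 CPM in sham, 6.29, 1.29, 10.2 and 1.66 CPM in CLP, and 22.1, 9.41, 0.677 and 13.4 CPM in CLP+DCA mice. Its sham and CLP mice did not overlap either, and its log2 fold change was -2.37 (SE 0.82, adjusted p = 0.0969 by the same edgeR test).

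Gstm2 and Gstm4 code for mu enzymes whose sham and CLP values overlapped. Gstm2 stood at 41.2, 31.9, 45.4 and 40.5 CPM in sham, 30.9, 24.5, 42.5 and 19.7 CPM in CLP, and 47.7, 29.3, 10.6 and 34.4 CPM in CLP+DCA mice. Gstm4 stood at 48.2, 48.4, 54.7 and 38.8 CPM in sham, 34.6, 18.5, 50.4 and 16.9 CPM in CLP, and 40.6, 30.6, 8.45 and 32.7 CPM in CLP+DCA mice. In both genes CLP mouse 3 lay inside the sham range. The log2 fold changes in CLP were -0.43 (95% interval -1.23 to 0.36) for Gstm2 and -0.65 (95% interval -1.60 to 0.29) for Gstm4, intervals that include no difference.

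The theta gene Gstt1, whose enzyme takes dihalomethanes, stood at 112, 111, 171 and 102 CPM in sham, 48.7, 25.4, 70.02 and 30.2 CPM in CLP, and 93.4, 90.4, 22.8 and 90.1 CPM in CLP+DCA mice. All CLP mice lay below all sham mice, with a log2 fold change of -1.51 (SE 0.43, adjusted p = 0.0696, edgeR). Gstt2, whose enzyme takes sulfate esters, stood at 44.6, 48.1, 73.3 and 38.2 CPM in sham, 30.8, 28.8, 42.1 and 27.3 CPM in CLP, and 27.4, 37.8, 13.2 and 36.2 CPM in CLP+DCA mice. CLP mouse 3 overlapped sham mouse 4, and the log2 fold change was -0.66 (SE 0.30, adjusted p = 0.175, edgeR).

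The pi gene Gstp1 codes for a highly expressed enzyme of male mouse liver that also modifies protein thiols. It stood at 770, 470, 625 and 705 CPM in sham, 566, 581, 549 and 550 CPM in CLP, and 594, 433, 343 and 577 CPM in CLP+DCA mice. The 4 CLP mice lay within the sham range, and CLP mice 2 and 4, low for most other members, were level with CLP mice 1 and 3. The log2 fold change was -0.19 (95% interval -0.61 to 0.22). Gstp2, the neighbour that shares much of its sequence, stood at 1.75, 1.26, 1.39 and 1.56 CPM in sham, 2.83, 10.8, 3.92 and 8.13 CPM in CLP, and 1.72, 1.88, 8.02 and 1.30 CPM in CLP+DCA mice. All CLP mice lay above all sham mice, with a log2 fold change of 2.09 (SE 0.60, adjusted p = 0.0701 by edgeR's quasi-likelihood test), and without CLP+DCA mouse 3 the adjusted p was 0.00560. Gstp2 had at most 296 reads per mouse where Gstp1 had at least 12129, and how reads that match both genes were assigned is not given in the sources used here.

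The windows before Gstp1 and Gstp2 are shown since all CLP mice lay above sham for Gstp2 and within the sham range for Gstp1, a difference between the genes that was not tested. They were 76.6% identical, and both hold TGAGTCA, an AP-1 type site (searched as TGANTCA, a motif added after the windows had been read, which 7.81% of all windows hold), at position -74 in Gstp1 and -89 in Gstp2, in capitals. TGANTCA can overlap TGACNNNGC, but here no base is in both. Other forms of the antioxidant response element were not searched, so these windows cannot be said to lack it.
Gstp1, chr19:4037863-4038162, minus strand: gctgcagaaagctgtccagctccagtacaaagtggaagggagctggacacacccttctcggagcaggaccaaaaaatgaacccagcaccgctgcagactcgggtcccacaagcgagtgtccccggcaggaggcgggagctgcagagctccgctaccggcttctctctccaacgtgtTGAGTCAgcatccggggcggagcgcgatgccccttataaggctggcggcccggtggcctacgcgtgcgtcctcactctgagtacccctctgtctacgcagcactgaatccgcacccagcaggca
Gstp2, chr19:4042172-4042471, minus strand: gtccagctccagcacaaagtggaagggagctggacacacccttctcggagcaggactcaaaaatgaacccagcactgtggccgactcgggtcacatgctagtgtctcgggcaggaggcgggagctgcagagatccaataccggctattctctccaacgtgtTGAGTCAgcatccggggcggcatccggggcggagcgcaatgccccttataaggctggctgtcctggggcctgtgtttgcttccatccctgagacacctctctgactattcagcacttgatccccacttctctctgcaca

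Over the 10 members, 6 had no overlap between CLP and sham, all below (Gsta2, Gsta3, Gsta4, Gstm1, Gstm3 and Gstt1), where 14.2% of all tested genes lay wholly below sham and 12.2% wholly above. The median log2 fold change of the members was -1.65 and that of all tested genes 0.02. Gsta4, Gstm3, Gstm1 and Gsta3 ranked 24, 52, 60 and 109 from the lowest log2 fold change among 13190 genes. The number of members that fell depended on which mice and which test were used. Fitted to the 8 sham and CLP mice, edgeR called 5 members lower, where 8.99% of all tested genes were, and DESeq2 called 7, where 11.5% were. Without CLP+DCA mouse 3 the edgeR fit also called 7, namely Gsta2, Gsta3, Gsta4, Gstm1, Gstm3, Gstt1 and Gstt2, where 11.5% of all tested genes were called lower. Gstm2, Gstm4 and Gstp1 were not called in any of these fits.

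**Figure D2:**
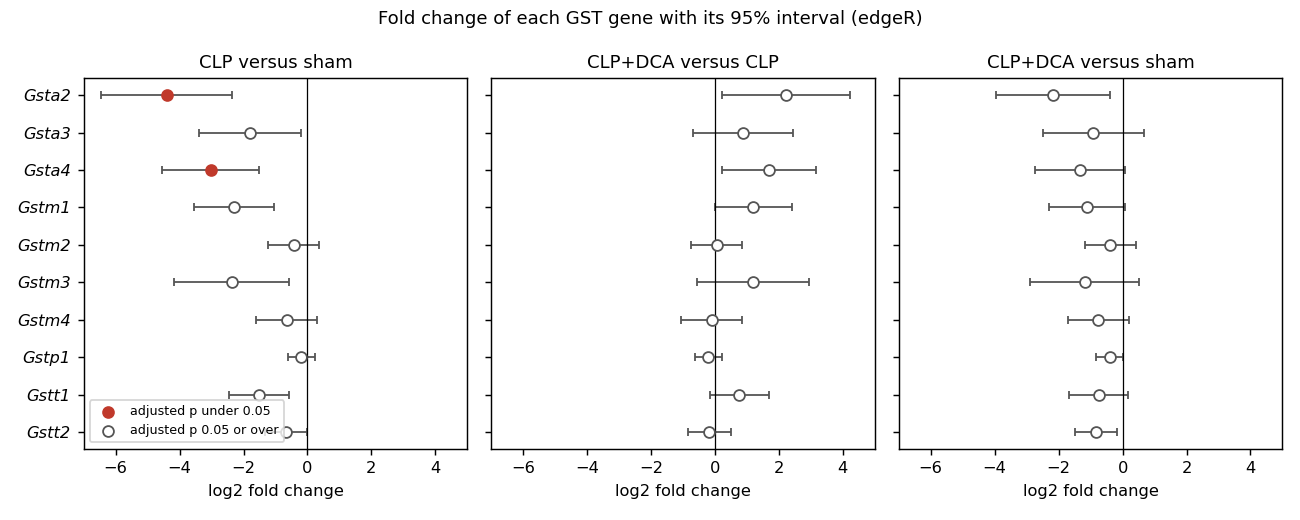
Log2 fold change (x axis) of each GST gene (y axis) in the 3 comparisons, with 95% intervals from edgeR, n = 4 mice per group. Filled points have an adjusted p under 0.05: Gsta2 and Gsta4 in CLP versus sham, and none in the comparisons with CLP+DCA.

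Summed by class, alpha reads stood at 1178 ± 60.9 CPM in sham and 334 ± 260 CPM in CLP, mu reads at 1152 ± 232 and 275 ± 183 CPM, theta reads at 175 ± 46.8 and 75.8 ± 26.7 CPM and pi reads at 643 ± 129 and 561 ± 15.1 CPM (SD, n = 4). In CLP+DCA liver the sums were 618 ± 400 CPM for alpha, 552 ± 292 for mu, 103 ± 44.7 for theta and 487 ± 120 for pi. Without CLP+DCA mouse 3 they were 807 ± 161, 687 ± 134, 125 ± 3.86 and 535 ± 88.3 CPM (SD, n = 3). All members together took a mean of 0.333% of the reads of a sham mouse, 0.120% of a CLP mouse and 0.183% of a CLP+DCA mouse.

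As a share of the members' reads per kb, the pi class made up 36.4, 27.8, 27.6 and 33.0% in sham mice 1 to 4. It made up 56.2, 78.4, 43.3 and 74.2% in CLP mice and 35.3, 35.7, 71.9 and 40.4% in CLP+DCA mice. Every CLP mouse had a larger pi share than any sham mouse. The alpha share was 28.5 to 35.4% in sham and 6.96 to 28.0% in CLP, the mu share 28.9 to 37.7% and 10.6 to 24.5%, and the theta share 3.31 to 5.37% and 3.31 to 4.26%. The septic mice with the largest pi shares, CLP mice 2 and 4 and CLP+DCA mouse 3, were those with the largest acute phase shares, 26.5 to 29.1% of reads.

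**Figure D3:**
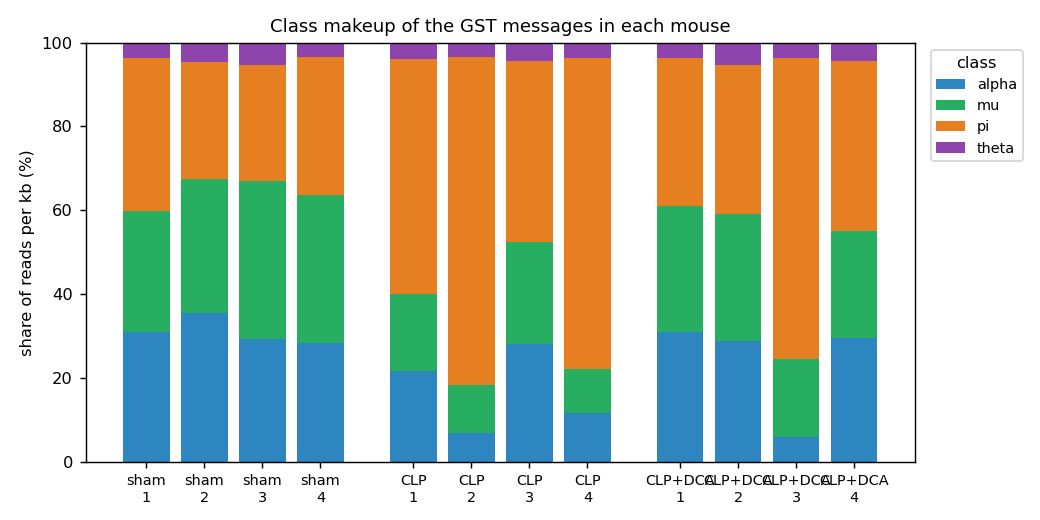
Share (y axis, % of the members' reads per kb of exon) of the alpha, mu, pi and theta classes in each mouse (x axis). The pi share is 27.6 to 36.4% in sham and 43.3 to 78.4% in CLP mice, and CLP+DCA mouse 3, at 71.9%, resembles CLP mice 2 and 4.

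Ratios between members within a mouse do not depend on the scaling of its library, and 7 were compared between groups by an exact permutation test (two-sided, 4 against 4 mice, smallest possible p = 0.0286), with adjustment over the 7. In CLP against sham 6 differed, each with no overlap and p = 0.0286 (adjusted p = 0.0333, exact permutation test). Several of the 7 share Gstm1 or Gsta3 as the gene divided by, so they are not separate results. Ratios between other genes were not examined, here or in the next comparisons, so these counts have no share to be read against. Of single genes, 14.2% lay wholly below sham in CLP and 12.2% wholly above. The log2 ratio of Gsta2 to Gsta3 differed by -3.30 and that of Gsta4 to Gsta3 by -1.34, so that both stood further below sham than Gsta3 did. The first value rests on 0 and 1 reads of Gsta2 in CLP mice 2 and 4 and so on the pseudocount of 0.5, and with a pseudocount of 2 it was -2.52 (adjusted p = 0.0333, exact permutation test). The log2 ratio of Gstm2 to Gstm1 differed by 2.09, that of Gstm4 to Gstm1 by 1.77, that of Gstt2 to Gstt1 by 0.96 and that of Gstp1 to Gstm1 by 2.40. For Gstm3 to Gstm1 the difference was -0.28 (exact permutation p = 0.429). With 1 mouse left out the smallest p this test can give is 0.0571, so it cannot pass.

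The same ratios were compared between CLP+DCA and CLP, which shares the CLP mice with the comparison above. The difference in log2 ratio was 1.96 for Gsta2 to Gsta3, 1.17 for Gsta4 to Gsta3, -1.31 for Gstm2 to Gstm1, -1.40 for Gstm4 to Gstm1 and -0.94 for Gstt2 to Gstt1. These 5 had no overlap and p = 0.0286 (adjusted p = 0.0400, exact permutation test), while Gstp1 to Gstm1 differed by -1.47 (exact permutation p = 0.0857) and Gstm3 to Gstm1 by -0.29 (exact permutation p = 0.771). With a pseudocount of 2 the difference for Gsta2 to Gsta3 was 1.36. Against sham, no ratio in CLP+DCA passed the adjustment, and the difference with the smallest p was 0.78 for Gstm2 to Gstm1 (exact permutation p = 0.0286, adjusted p = 0.200). Without CLP+DCA mouse 3 the 5 differences from CLP were 2.23, 0.96, -1.42, -1.45 and -1.11, and that of Gstp1 to Gstm1 was -1.87, each at an exact permutation p of 0.0571, the smallest that 3 against 4 mice allow. The mean log2 ratio of Gstt2 to Gstt1 was then -1.45, below that of sham, -1.30. Mouse 3 itself was the nearest of its group to the CLP mice for Gsta2 to Gsta3 (-9.56, CLP mice -11.98 to -9.76), Gstm2 to Gstm1 (-3.58, CLP mice -3.29 to -1.96), Gstm4 to Gstm1 (-3.91, CLP mice -3.05 to -2.37) and Gstt2 to Gstt1 (-0.79, CLP mice -0.73 to 0.18). It was the farthest from them for Gsta4 to Gsta3 (-5.44, CLP mice -7.64 to -6.90), lay among them for Gstp1 to Gstm1 (1.43) and below every other mouse for Gstm3 to Gstm1 (-7.53).

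**Figure D4:**
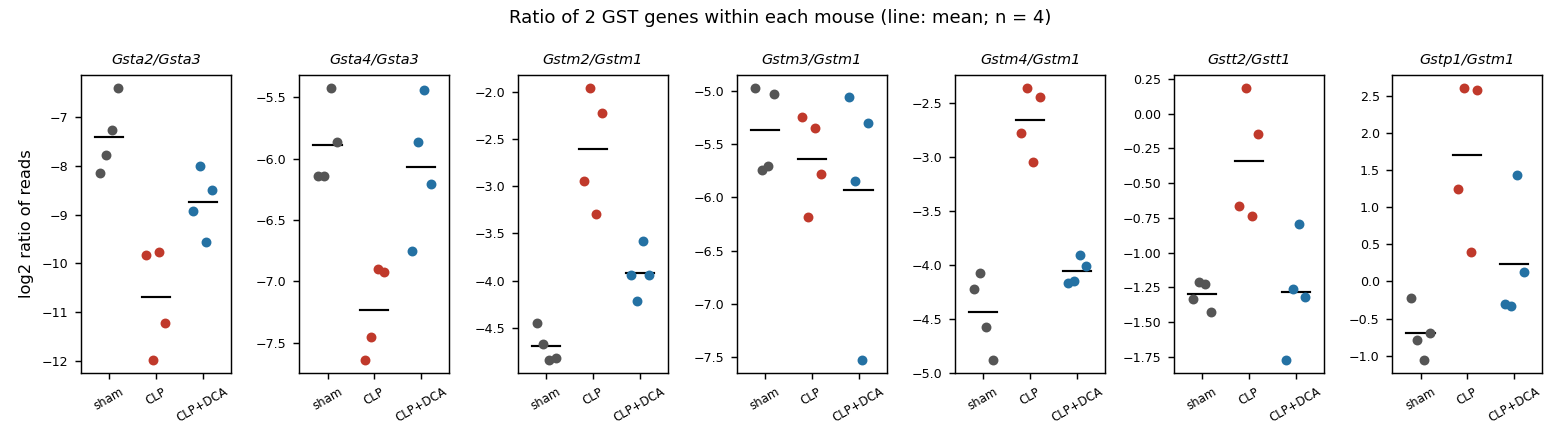
Log2 ratio of the reads of 2 GST genes (y axis) in each mouse (points, with the mean of 4 as a line) in the sham, CLP and CLP+DCA groups. CLP mice have lower Gsta2/Gsta3 and Gsta4/Gsta3 and higher Gstm2/Gstm1, Gstm4/Gstm1, Gstt2/Gstt1 and Gstp1/Gstm1 than every sham mouse, and Gstm3/Gstm1 overlaps.

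Whether DCA changed the level of a member in septic liver was asked by comparing CLP+DCA with CLP. None of the 10 passed the test in edgeR, where 1 of 13190 genes, 0.00758%, was called higher. At an unadjusted p below 0.05 there were 2 members, both higher, where 5.06% of all tested genes were higher and 4.94% lower: Gsta2 with a log2 fold change of 2.22 (95% interval 0.20 to 4.23) and Gsta4 with 1.69 (95% interval 0.21 to 3.17). DESeq2 called 0 members with all 12 or with the 8 mice, where it called 0.437% and 0.31% of genes higher. Limma-voom with sample quality weights called 4 higher, Gsta3, Gsta4, Gstm1 and Gstt1, where it called 4.93% of all tested genes higher. The point estimates were higher in CLP+DCA for 7 members and lower for Gstm4, Gstp1 and Gstt2, and no member was free of overlap. Gstm1 differed by 1.19 (95% interval -0.01 to 2.39), Gstm3 by 1.18 (95% interval -0.57 to 2.93), Gsta3 by 0.88 (95% interval -0.70 to 2.45) and Gstt1 by 0.77 (95% interval -0.16 to 1.69).

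Without CLP+DCA mouse 3 the 3 remaining mice lay above all CLP mice for Gsta2, Gsta4, Gstm1 and Gstt1, 4 of 10 members, where 12.4% of all tested genes did. Their means were 2.21 ± 0.257 CPM for Gsta2, 10.2 ± 1.08 for Gsta4, 601 ± 114 for Gstm1 and 91.3 ± 1.82 for Gstt1 (SD, n = 3). The log2 fold changes over CLP were then 2.58, 2.03, 1.51 and 1.06, with adjusted p values of 0.0526, 0.0558, 0.0768 and 0.0648 in edgeR, where 2.01% of all tested genes were called higher. Gstp1 at 535 ± 88.3 CPM, Gstm4 at 34.6 ± 5.29 and Gstt2 at 33.8 ± 5.61 (SD, n = 3) overlapped the CLP mice. CLP mice 2 and 4, with acute phase shares of 29.1 and 26.5%, stayed in the CLP group here. The mouse left out of CLP+DCA had a share of 28.8%, so the exclusion touched the CLP+DCA group only. How far this sets the fold changes above was not tested.

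Against sham, all 10 members had negative log2 fold changes in CLP+DCA, with a median of -0.88 against 0.01 for all tested genes. This comparison shares its mice with both of the others. None passed the test in edgeR, where 0.00758% of genes were called lower, and 2 had an unadjusted p below 0.05, Gsta2 at -2.18 and Gstt2 at -0.84, where 4.85% of genes were lower by that measure. DESeq2 called none, where it called 0.586% of genes lower, and limma-voom 1, Gstt2, where it called 1.65% lower. Gsta2, Gsta3, Gsta4, Gstm1, Gstt1 and Gstt2 lay below all sham mice, 6 of 10 members, where 4.97% of all tested genes did. Gsta4 without that mouse stood at 51.2% of sham and Gsta2 at 29.3%.

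Of the other GST genes, 19 of 21 listed were counted and 13 tested. None passed the test in edgeR in CLP against sham, with 6 at an unadjusted p below 0.05, and these 6 (Gstm6, Gstt3 and Gsto1 lower, Gstm5, Gstp2 and Gstp3 higher) were the genes that DESeq2 called with all 12 mice. Of all genes 13.1% were lower and 15.5% higher at that unadjusted p, and DESeq2 called 5.92% lower and 7.12% higher. Without CLP+DCA mouse 3 edgeR called the same genes and Gstk1, lower, where 11.5% of all genes were called lower and 12.2% higher. Gstm6, a further gene of the mu cluster, went from 55.4 ± 5.33 to 21.6 ± 9.54 CPM, Gsto1, an omega class thioltransferase, from 80.9 ± 1.35 to 28.7 ± 14.3 CPM and Gstt3 from 36.3 ± 8.59 to 12.8 ± 7.68 CPM (SD, n = 4), each with no overlap. Gstm5 and Gstp3 lay above sham in all 4 CLP mice, at 7.87 ± 0.317 against 6.13 ± 0.475 CPM and 15.9 ± 4.45 against 7.88 ± 0.920 CPM. Mgst1, the membrane enzyme with the highest level of all, was at 2996 ± 332 CPM in sham and 2536 ± 284 CPM in CLP. Gstz1, the zeta enzyme that breaks down DCA itself, stood at 600 ± 20.2 CPM in sham mice, 473 ± 75.7 CPM after CLP and 493 ± 184 CPM after CLP and DCA, with a log2 difference between the last 2 of 0.06 (95% interval -0.51 to 0.63). All CLP mice lay below all sham mice, where 14.2% of all tested genes did. CLP+DCA mice 1, 2 and 4, at 568, 600 and 588 CPM, lay above all CLP mice (378 to 554 CPM), where 12.4% of all tested genes did. Mouse 3 was at 219 CPM. In CLP+DCA against CLP edgeR and DESeq2 called none of the 13, with 1 at an unadjusted p below 0.05 (Gstm5, lower), and limma-voom called 3 (2 higher and 1 lower, where 4.93% and 5.24% of genes were). Without CLP+DCA mouse 3 edgeR called Gsto1 higher and Gstp2 and Gstp3 lower in CLP+DCA, where 2.01% and 2.63% of genes were.

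**Figure D5:**
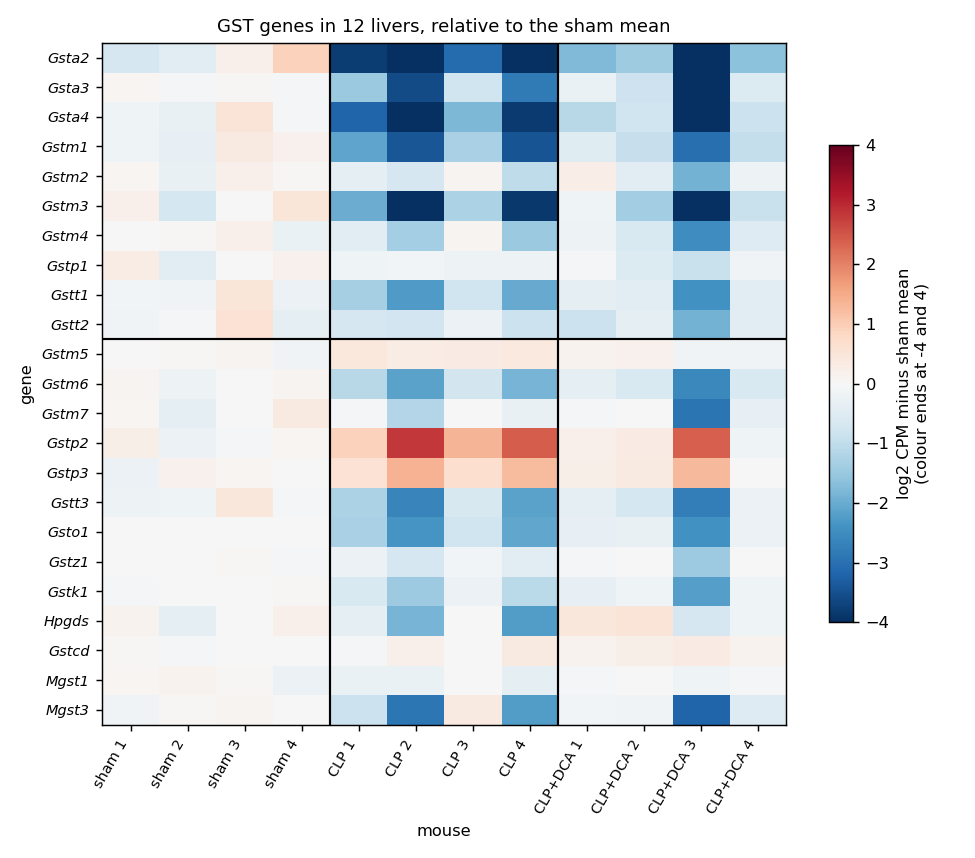
Log2 CPM minus the sham mean (colour, blue below and red above) of the 10 members (above the line) and 13 other tested GST genes (below) in each mouse. Gsta2, Gsta4 and Gstm3 are the darkest blue in the septic mice, Gstp2 and Gstp3 are red in CLP mice, and the columns of CLP mice 2 and 4 and CLP+DCA mouse 3 are the strongest.

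GSTs use glutathione, so the genes that make and recycle it were followed. Of 13 tested, 1 fell in CLP and 0 rose (edgeR), where 1.14% and 1.64% of all genes did, with 3 lower and 1 higher at an unadjusted p below 0.05, where 13.1% and 15.5% of all genes were. DESeq2 with all 12 mice called 2 lower, Gclc and Cbs, and 1 higher, Mat1a, where it called 5.92% and 7.12% of genes. The gene that fell in edgeR was Gclc, the catalytic subunit of the rate-limiting step of glutathione synthesis. Its level was 231 ± 18.0 CPM in sham mice, 136 ± 17.3 CPM after CLP and 154 ± 28.8 CPM after CLP and DCA, with no overlap between sham and CLP (log2 fold change -0.76, SE 0.15, adjusted p = 0.0295, edgeR's quasi-likelihood test). The call was lost when any of sham mice 1 to 4 or CLP mice 1, 2 or 4 was left out (adjusted p up to 0.104, without CLP mouse 2), and it held in the other 5 of 12 such fits. Gclm, the modifier subunit, had a log2 fold change of -0.41 (95% interval -1.08 to 0.27), Gss, glutathione synthetase, -0.16 (95% interval -0.41 to 0.08) and Gsr, which reduces the disulfide back, -0.25 (95% interval -0.60 to 0.11). Mat1a, which makes S-adenosylmethionine, differed by 0.69 (adjusted p = 0.0534, edgeR).

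Conjugates leave the cell through export pumps and are trimmed on the way to mercapturates. Of 14 tested genes of this list none passed in edgeR in CLP against sham, with 4 lower and 3 higher at an unadjusted p below 0.05, and DESeq2 with all 12 mice called 2 lower and 2 higher, to be read against the same shares of all genes (13.1% and 15.5%, and 5.92% and 7.12%). The genes with the smallest p were Dpep2, a dipeptidase, and Lap3, an aminopeptidase. Dpep2 had 2 to 4 reads per mouse in sham and 34 to 64 in CLP (log2 fold change 4.13, adjusted p = 0.0514, edgeR). Every sham mouse was below the minimum count of 10, so Dpep2 was tested only through its reads in septic mice. Its fold change and its place here are therefore no support for a rise. Lap3 stood at 298 ± 15.4 CPM in sham and 182 ± 15.5 CPM in CLP (log2 fold change -0.71, adjusted p = 0.0622, edgeR). Abcc2, the canalicular pump, had a log2 fold change of -0.17 (95% interval -0.60 to 0.25).

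Of 16 regulators of GST genes none passed in edgeR, with 5 lower at an unadjusted p below 0.05 and none higher, and DESeq2 with all 12 mice called 4 lower, Nfe2l2, Maff, Ppara and Cebpa, where 13.1% and 5.92% of all genes were lower by these measures. Those with the smallest p were Nfe2l2, the gene of NRF2, at 51.0 ± 5.34 CPM in sham and 37.2 ± 3.14 in CLP (log2 fold change -0.45, adjusted p = 0.0756, edgeR), and Ppara at 334 ± 58.0 and 188 ± 47.6 CPM (log2 fold change -0.83, adjusted p = 0.0869, edgeR). For neither did the CLP mice overlap with sham mice. Against CLP, the CLP+DCA group had none called by edgeR or DESeq2 in these 3 lists and 0, 3 and 1 by limma-voom, and 0, 3 and 3 genes, respectively, at an unadjusted p below 0.05, where limma-voom called 4.93% of all genes higher and 5.24% lower and 5.06% and 4.94% had such a p.

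The genes whose pattern over the 12 mice was most like that of a member were found by the root mean square difference of log2 CPM, each gene centred on its sham mean. For Gsta2 the nearest were Cyp2a5 (0.62), Cyp3a11 (0.68) and Upp2 (0.76). For Gsta4 they were Cyp1a2 (0.49), Dbp (0.52) and Gm4956 (0.52), and for Gstm3 they were Cyp4f14 (0.35), Slc22a28 (0.46) and Marcksl1-ps4 (0.49). Cyp2a5, Cyp3a11, Cyp1a2 and Cyp4f14 code for cytochrome P450 enzymes. Between members the difference was smallest for Gstm2 and Gstm4 (0.37), Gstm4 and Gstt2 (0.39) and Gstm2 and Gstt2 (0.41), and largest for Gsta2 and Gstp1 (3.33). Pairs within a class ran from 0.37 (Gstm2 and Gstm4) to 1.79 (Gsta2 and Gsta3), and pairs of different classes from 0.39 to 3.33.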

How the data were processed

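RNA of whole liver from 12 mice (sham, CLP and CLP+DCA, 4 each, grouped by their labels) had been sequenced as TruSeq libraries. Per the labels the authors aligned reads to mm10 with STAR 2.5 and deposited raw read counts per gene (featureCounts, Subread 1.5.0-p1). The annotation, strand setting and treatment of reads shared by genes are not given in the sources used here. Counts were analysed with edgeR 4.0.16 in R 4.3.3: genes were kept by filterByExpr (minimum count 10), libraries scaled by TMM, and all 12 mice fitted by group with the robust quasi-likelihood test at a false discovery rate of 0.05 over 13190 genes. CPM used the same scaling, log2 CPM a prior count of 2 and ratios a pseudocount of 0.5. Alternatives were DESeq2 1.42.0, limma 3.58.1 (voom with sample quality weights), RLE scaling, no filter, a fit without robust estimation, the 8 mice compared, a replicate block, library sizes without acute phase genes, GST reads summed per class or over near-identical genes, and each mouse left out. The fit with library sizes without acute phase genes also left out TMM scaling, so it changed both at once. Scripts were tested on simulated counts with a lowered spread between mice and no outlying mouse. That checks the code and not how the tests behave on these data. Transcripts and exonic lengths came from GENCODE M21, promoter windows from RefSeq. The named genes were all 10 members, genes of the other lists that passed the test or had the 2 smallest p in CLP against sham, and any other GST gene. Some further genes of the glutathione and export lists were named after their values were seen. The members and lists were chosen with earlier results of these data known. Each mouse was taken as 1 replicate. Reads carry no molecular identifiers, so that limits from counts cover counting error only. Protein sequences were not used here.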

Additional observations from a re-analysis of the deposited data

Results flagged for a closer look

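CLP+DCA mouse 3 lay far from the other 3 mice of its group for 4 of the 10 members, by the gap to the nearest mouse as a share of the group's range. Its log2 CPM was -3.12 for Gsta2 (others 1.03 to 1.35), 5.67 for Gsta3 (others 9.32 to 9.91), 0.29 for Gsta4 (others 3.17 to 3.47) and 4.52 for Gstt1 (others 6.49 to 6.55). Over 10 members and 3 groups 30 sets of 4 mice were examined, of which chance flags about 1 in 20, and the 4 values come from 1 mouse. In this mouse acute phase genes took 28.8% of the reads and hepatocyte markers 2.91%, and their part in these values was not tested.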

How the results depend on the processing

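The direction of CLP against sham was the same for all 10 members under each alternative run, and no alternative scaling moved the median of all genes by more than 0.1 on the log2 scale. Of 220 values of single members in that comparison, 22 were no longer past the threshold and 23 came to be past it. The number of members past the threshold was 5 with DESeq2 on 12 mice (1894 of all genes), 7 with DESeq2 on the 8 mice (3428), 5 with edgeR on the 8 mice (2387), 7 with voom (3453) and 0 with no filter (122). Here and below, counts of all genes take lower and higher calls together, while every member called in CLP against sham was lower. The share of genes called lower was 5.92% with DESeq2 on 12 mice, 11.5% with DESeq2 on the 8 mice and 8.99% with edgeR on the 8 mice. For voom and no filter that share was not examined. The number of members past the threshold was 0 to 7 with 1 mouse left out (10 to 3157 of all genes). With the replicate block it was 0 (46 of all genes). The sources used here do not say whether mice of the same number shared a day or litter. Of 12 same-number pairs, 1 deviated together by a correlation over 0.1, which cannot exclude such sharing. In CLP+DCA against CLP the calls over all genes were 136 and 80 with DESeq2 on 12 and 8 mice, 0 with edgeR on the 8 mice, 1341 with voom (4 members), 0 with library sizes without acute phase genes and without TMM scaling, 4 with the block and 0 to 616 with 1 mouse left out. In CLP+DCA against sham they were 247 and 169 with DESeq2, 0 with edgeR on the 8 mice, 496 with voom (1 member), 0 with the block and 1 to 11 with 1 mouse left out. The cause of these shifts was not tested.

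The sign turned with voom for Gstm4 in CLP+DCA against CLP (0.37) and Gstm2 in CLP+DCA against sham (0.037). With 1 mouse left out, CLP+DCA against CLP ran from -0.25 to 0.33 for Gstm2, from -0.34 to 0.26 for Gstm4 and from -0.35 to 0.064 for Gstt2. The ratio differences in CLP against sham then ran from -3.61 to -2.87 for Gsta2 to Gsta3, -1.45 to -1.18 for Gsta4 to Gsta3, 1.87 to 2.31 for Gstm2 to Gstm1, 1.63 to 1.90 for Gstm4 to Gstm1, 0.78 to 1.09 for Gstt2 to Gstt1 and 2.10 to 2.83 for Gstp1 to Gstm1. In CLP+DCA against CLP they ran from 1.53 to 2.27, 0.96 to 1.39, -1.54 to -1.09, -1.53 to -1.30 and -1.11 to -0.77 for the first 5 and from -0.58 to 0.24 for Gstm3 to Gstm1. In CLP+DCA against sham they ran from -0.38 to 0.057 for Gsta4 to Gsta3 and from -0.15 to 0.18 for Gstt2 to Gstt1. Reads of Gsta2 in CLP, 0 to 31 per mouse, limit how well its fold is known.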
